A study of Mus musculus with 10 samples.

Results

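The transcripts described here are those of 9 genes of the smooth muscle contractile machinery: the actins Acta2 and Actg2, the myosin heavy chain Myh11, the myosin kinase Mylk, the thin filament proteins Tagln, Cnn1 and Lmod1, and the intermediate filament proteins Des and Synm. They were listed by gene name and not ranked by their values, but with earlier results of these data known. All 9 were found among the 16875 gene names of the table. RNA sequencing covered 10 macrodissected, fresh frozen colon tumors of C57Bl6 mice treated with the carcinogen azoxymethane and with 3 cycles of 2% dextran sulfate sodium (AOM/DSS), a model of inflammation-induced colon cancer. The 5 control tumors were of genotype Wls flox/flox and had intact Wnt secretion. The 5 Villin-WlscKO tumors carried Villin-Cre ERT2 and Wls flox/flox, and their mice had received 5 injections of tamoxifen at 80 mg/kg, begun 30 days before collection. Wls is the membrane protein that Wnt proteins need in order to be secreted, and the Villin promoter restricts the recombinase to the gut epithelium. Control tumors were without tamoxifen unless otherwise indicated in the study. The number of mice is not given, so n counts tumors, and a p-value measures the spread between these tumors. The age of the mouse behind each tumor was not given in the labels.

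Smooth muscle shortens when myosin filaments pull on thin filaments made of actin, and myosin is switched on by phosphorylation of its light chain by the kinase that Mylk encodes. In the colon the layered muscle coat and the muscularis mucosae express the whole set, while pericytes and activated fibroblasts (myofibroblasts) share some of it, Acta2 and Tagln above all. Des, Cnn1, Myh11 and Actg2 are more restricted to mature muscle, Actg2 being the actin typical of visceral muscle. Mylk gives rise to several products from 1 gene, among them a short kinase of smooth muscle and a long kinase that many other cells make, gut epithelium included. Many of these genes are driven by serum response factor (SRF) bound to CArG boxes, short elements rich in A and T between CC and GG.

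CArG boxes were searched in the 6 member promoters held by the RefSeq table for GRCm38.p6, from 250 bases before to 50 after its start. It held no promoter of Actg2, Myh11 or Tagln, so these members were not searched. The Mylk window, chr16:34784700-34784999, lies inside the gene as GENCODE M21 places it, from 34745210. The promoter at that earlier start was not searched. The exact form, CC, then 6 letters A or T, then GG, was in 0 of the 6 and in 1.63% of all 32851 promoters. A looser form, with at most 1 of the 6 inner letters other than A or T, was searched after the exact form had been seen to be missing. Both forms read the same on either strand. The looser form was in 2 of the 6, Acta2 and Synm, and in 9.98% of all promoters, and Acta2 held 2 of them, as 0.822% of all promoters do. These stretches are printed because Acta2 is the most abundant member and the one that followed the fibroblast genes most closely. They run 5′ to 3′ along the gene, 30 bases each, with the CArG-like letters in capitals, and lie on the minus strand.
Acta2, chr19:34255438-34255467, box beginning 84 bases before the start: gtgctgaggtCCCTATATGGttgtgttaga
Acta2, chr19:34255388-34255417, box beginning 34 bases before the start: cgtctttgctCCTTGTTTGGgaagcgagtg
Synm, chr7:67759962-67759991, box beginning 239 bases before the start: caacggggagCCTCATAAGGtgtcccagat
Both Acta2 stretches fall inside the first exon of that gene in GENCODE M21, which places the start farther upstream than RefSeq does, and the Synm stretch lies in no Synm exon. The matches are letters only, and binding was not measured.

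The values are FPKM (fragments scaled to transcript length and to the mapped reads of the library), a unit per length, so that levels can be compared between genes. The sequencing depth is unknown, since reads cannot be recovered from FPKM. A change below is the mean log2(FPKM + 1) of the Villin-WlscKO tumors less that of the control tumors. Its standard error (SE) and two-sided Benjamini-Hochberg adjusted p come from limma, fitted over the 16757 genes whose mean FPKM reached 0.5. A change counts as called at an adjusted p under 0.05. On this scale the change of genes near 1 FPKM, Lmod1 and Synm among the members, is understated. In bulk tissue, fewer cells of a type and less RNA per cell cannot be told apart.

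The deletion was visible in its target. Wls ranged from 61.3 to 79.9 FPKM in control tumors and from 2.03 to 11.7 FPKM in Villin-WlscKO tumors (log2 change -3.59, SE 0.39, limma adjusted p = 0.000337). The groups also differed in sex and tamoxifen. Xist, the RNA that coats the silenced X in female cells, was at most 0.420 FPKM in control tumors and at least 439 FPKM in Villin-WlscKO tumors, and the Y-linked gene Eif2s3y was at least 30.4 FPKM and at most 0.138 FPKM. Effects of genotype, sex and tamoxifen therefore cannot be told apart in any comparison given here. FPKM summed to between 1207683 and 1533885 per tumor. Villin-WlscKO tumors 2 and 3 stood apart in the mean log2(FPKM + 1) of 7 genes of stratified squamous epithelium, at 5.86 and 6.23 against 1.78 to 2.85 in the other 8 tumors, and held the most Wls of their group, 11.6 and 11.7 FPKM.

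All 9 members were detected in every tumor and passed the filter on low values. Between the groups, 8 of the 9 did not pass the threshold and Mylk, the myosin light chain kinase, was lower after the deletion, at 12.9 ± 2.74 FPKM against 21.9 ± 2.46 FPKM in control tumors (SD, n = 5 tumors each). Of all tested genes, 10.9% were called, 4.75% lower and 6.12% higher. The median log2 change of the members was 0.27, against 0.0073 over all genes, and 7 members were higher and 2 lower in mean, where 51.4% of all genes had a change above 0. Mylk was also the 1 member of 9 whose groups did not overlap, against 10.1% of all genes.

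**Figure D1:**
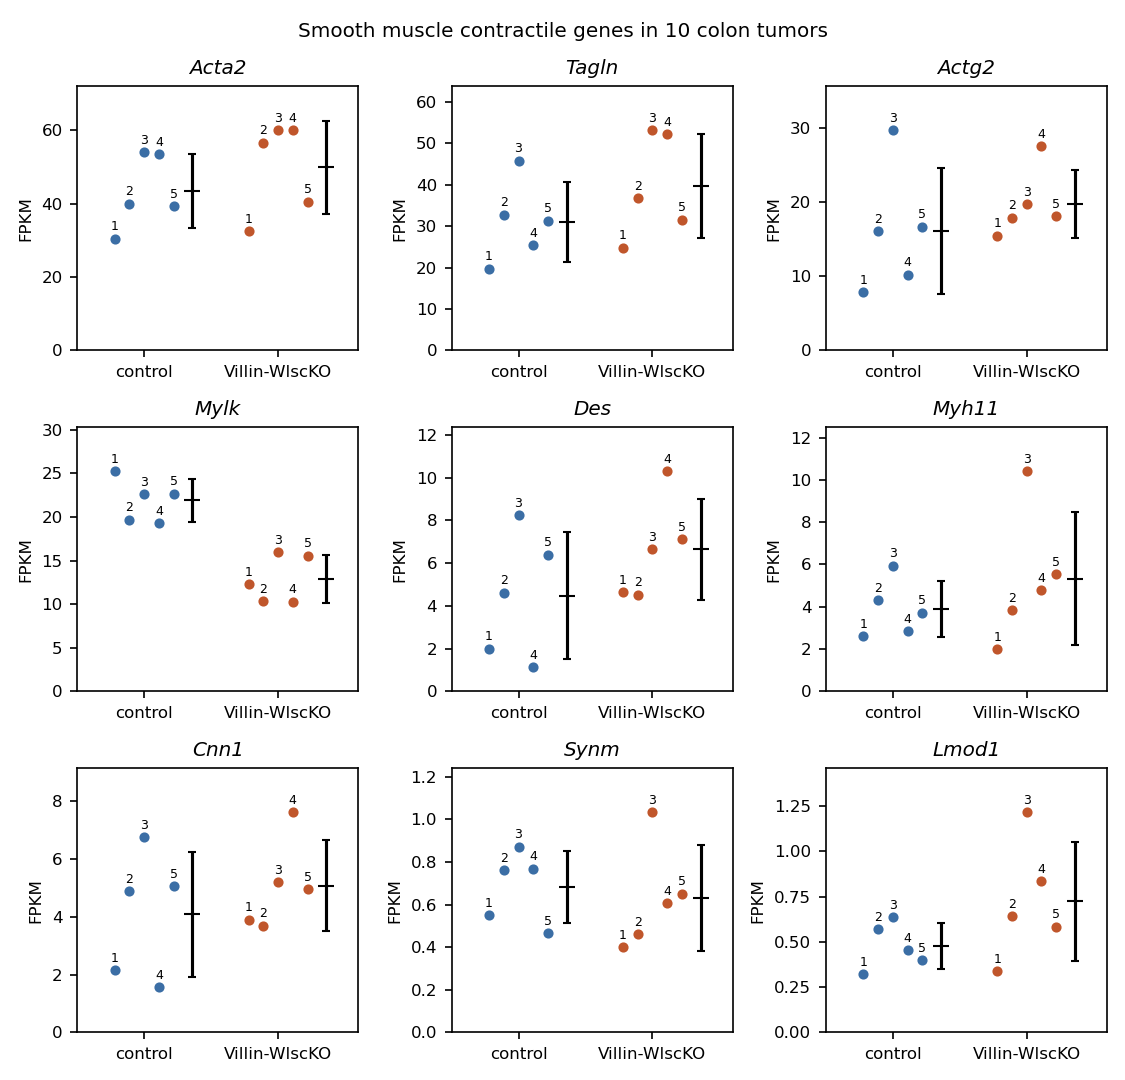
FPKM of the 9 members in each of the 10 AOM/DSS colon tumors (linear axis, FPKM), control and Villin-WlscKO side by side. Points are single tumors, and a bar with whiskers gives the group mean and SD. The groups overlap for every member but Mylk, whose 5 Villin-WlscKO tumors (10.3 to 16.0 FPKM) lie below all 5 control tumors (19.3 to 25.3 FPKM).

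The actins come first. Acta2, alpha smooth muscle actin, lies on chromosome 19 from 34241090 to 34255590 on the minus strand (positions of genes are taken from GENCODE M21, build GRCm38). Its level was 30.5, 40.0, 54.1, 53.4 and 39.3 FPKM in control tumors 1 to 5 and 32.5, 56.6, 60.1, 60.1 and 40.6 FPKM in Villin-WlscKO tumors 1 to 5. In both groups the tumors fell on either side of a gap between 40.6 and 53.4 FPKM, with control tumors 3 and 4 and Villin-WlscKO tumors 2, 3 and 4 above it. Villin-WlscKO tumors 2, 3 and 4 were above all control tumors and control tumor 1 was the lowest of the 10, while the other tumors overlapped. The log2 change was 0.19 (SE 0.21, 95% interval -0.27 to 0.65, limma adjusted p = 0.627).

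Actg2, gamma smooth muscle actin of visceral muscle, lies on chromosome 6 from 83512905 to 83536265 on the minus strand. It was at 7.86, 16.1, 29.7, 10.2 and 16.7 FPKM in control tumors 1 to 5 and at 15.4, 17.9, 19.7, 27.5 and 18.1 FPKM in Villin-WlscKO tumors 1 to 5. Control tumors spanned 3.78-fold and held both the lowest and the highest value of all 10, while the Villin-WlscKO tumors spanned 1.78-fold inside that range. The log2 change was 0.39 (SE 0.30, 95% interval -0.28 to 1.05, limma adjusted p = 0.466).

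Because both genes encode smooth muscle actins, their transcripts were compared for stretches that they share. The first coding bases of the longest complete GENCODE M21 transcript of each gene show the pattern, with capitals where the aligned letters differ or, in Acta2, where it has 1 codon more.
Acta2, coding bases 1 to 90: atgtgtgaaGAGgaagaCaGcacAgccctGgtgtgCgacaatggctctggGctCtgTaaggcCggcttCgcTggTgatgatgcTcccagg
Actg2, coding bases 1 to 87: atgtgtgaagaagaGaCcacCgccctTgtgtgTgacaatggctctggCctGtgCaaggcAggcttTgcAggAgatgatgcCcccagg
Over 1131 aligned coding bases, 955 were identical (84.4%), in runs of at most 29 bases. None of the 1986 stretches of 50 bases in the Acta2 transcript occurred in that of Actg2, and 0 of 1284 the other way. In the tumors Acta2 was above Actg2 in 10 of 10, and the difference between them moved from tumor to tumor. Log2(FPKM + 1) of Actg2 minus that of Acta2 was between -2.28 and -0.84 in control and between -1.61 and -1.03 in Villin-WlscKO tumors.

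Among the genes of the motor, Myh11, the smooth muscle myosin heavy chain, lies on chromosome 16 from 14194535 to 14291372 on the minus strand. It was at 2.63, 4.30, 5.94, 2.85 and 3.72 FPKM in control tumors 1 to 5 and at 2.00, 3.85, 10.4, 4.79 and 5.53 FPKM in Villin-WlscKO tumors 1 to 5. Villin-WlscKO tumors 1 and 3 held the lowest and the highest value of all 10, so that the control tumors lay inside the Villin-WlscKO range. The log2 change was 0.27 (SE 0.32, 95% interval -0.43 to 0.98, limma adjusted p = 0.647).

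Mylk lies on chromosome 16 from 34745210 to 35002420 on the plus strand, and its exons overlap those of the entries E130310I04Rik and Gm21691. It was at 25.3, 19.7, 22.7, 19.3 and 22.7 FPKM in control tumors 1 to 5 and at 12.3, 10.4, 16.0, 10.3 and 15.6 FPKM in Villin-WlscKO tumors 1 to 5. All Villin-WlscKO values lay below all control values, and the lowest control value, in tumor 4, was above the highest Villin-WlscKO value, in tumor 3. The log2 change was -0.74 (SE 0.14, 95% interval -1.04 to -0.43, limma adjusted p = 0.00731), which is a ratio of FPKM + 1 of 0.600 (0.486 to 0.740). It stayed lower and called with each tumor left out in turn, at changes between -0.81 and -0.67. The FPKM are per gene, so that the short and long kinases were not separated.

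Of the thin filament proteins, Tagln (transgelin or SM22, an actin-binding protein) lies on chromosome 9 from 45929619 to 45936058 on the minus strand and shares exonic bases with the coding gene Pcsk7. Whether strand was used in quantification is not given in the sources used here. Tagln was at 19.8, 32.8, 45.8, 25.4 and 31.4 FPKM in control tumors 1 to 5 and at 24.8, 36.8, 53.2, 52.3 and 31.6 FPKM in Villin-WlscKO tumors 1 to 5. Tumor 1 was the lowest of each group and tumor 3 the highest, and the groups overlapped (log2 change 0.34, SE 0.25, 95% interval -0.22 to 0.90, limma adjusted p = 0.442).

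Cnn1, calponin, which binds actin and restrains the myosin motor, lies on chromosome 9 from 22099216 to 22109630 on the plus strand. It was at 2.16, 4.90, 6.75, 1.56 and 5.07 FPKM in control tumors 1 to 5 and at 3.90, 3.69, 5.20, 7.63 and 4.97 FPKM in Villin-WlscKO tumors 1 to 5. Control tumors 1 and 4 were below all others, and the remaining 3 control tumors lay within the Villin-WlscKO range (log2 change 0.34, SE 0.31, limma adjusted p = 0.540).

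Lmod1, leiomodin, which nucleates actin filaments in smooth muscle, lies on chromosome 1 from 135324807 to 135368065 on the plus strand. It was at 0.321, 0.569, 0.635, 0.453 and 0.399 FPKM in control tumors 1 to 5 and at 0.339, 0.644, 1.22, 0.835 and 0.584 FPKM in Villin-WlscKO tumors 1 to 5. Villin-WlscKO tumors 2, 3 and 4 were above all control tumors, tumors 1 and 5 were not, and the log2 change was 0.21 (SE 0.15, limma adjusted p = 0.411). The log2 ratio of the mean FPKM, without the pseudocount, was 0.61.

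Of the intermediate filament genes, Des, desmin, the filament protein of muscle cells, lies on chromosome 1 from 75360329 to 75368579 on the plus strand. Its exons overlap those of the entry Gm15179. Des was at 2.00, 4.61, 8.25, 1.13 and 6.39 FPKM in control tumors 1 to 5 and at 4.63, 4.53, 6.65, 10.3 and 7.12 FPKM in Villin-WlscKO tumors 1 to 5. On the log2(FPKM + 1) scale Des had the largest change of the 8 members that were not called, but its control tumors spanned 7.28-fold and the groups overlapped (log2 change 0.63, SE 0.39, 95% interval -0.24 to 1.50, limma adjusted p = 0.351).

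Synm, synemin, which joins desmin filaments to other structures of the cell, lies on chromosome 7 from 67730160 to 67759742 on the minus strand and shares exonic bases with the coding gene Ttc23. It was at 0.549, 0.761, 0.872, 0.769 and 0.468 FPKM in control tumors 1 to 5 and at 0.399, 0.461, 1.03, 0.607 and 0.651 FPKM in Villin-WlscKO tumors 1 to 5. Both the lowest and the highest value of the 10 were in Villin-WlscKO tumors, with a log2 change of -0.05 (SE 0.13, 95% interval -0.35 to 0.24, limma adjusted p = 0.849).

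**Figure D2:**
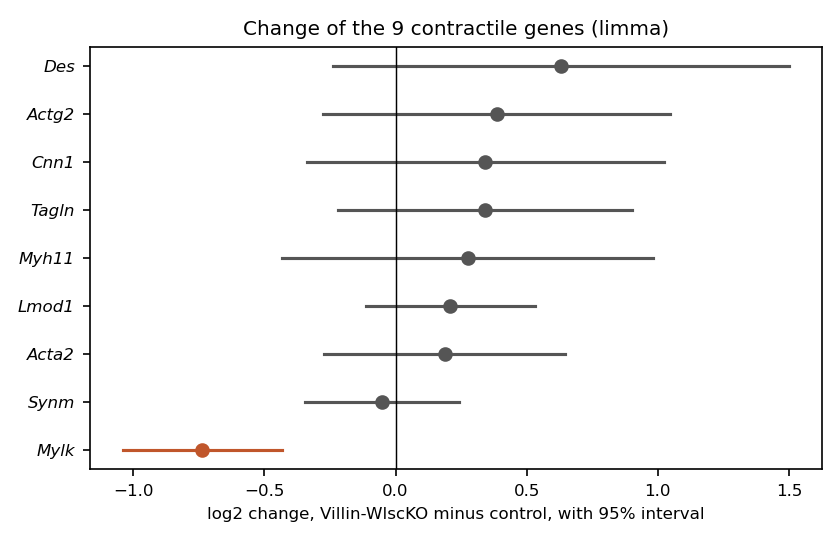
Change of each member in log2(FPKM + 1) between the group means (Villin-WlscKO less control), with the 95% interval of limma as bars, n = 5 tumors per group. The interval of Mylk runs from -1.04 to -0.43, and those of the other 8 members hold 0.

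The order of the members by mean level over the 10 tumors was Acta2 (46.7 FPKM), Tagln (35.4), Actg2 (17.9), Mylk (17.4), Des (5.56), Myh11 (4.60), Cnn1 (4.58), Synm (0.657) and Lmod1 (0.600). Acta2 was above Tagln, Tagln above Actg2 and Cnn1 above Synm in 10 of 10 tumors. The other neighbours changed places. Actg2 was above Mylk in 1 of 5 control tumors and in 5 of 5 Villin-WlscKO tumors, Des above Myh11 in 7 of 10, Myh11 above Cnn1 in 5 of 10, and Synm above Lmod1 in 7 of 10.

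Tumors of one group differed widely in 6 of these genes. The median SD within groups was 0.45 for the members and 0.21 for all tested genes on the log2 scale. Among genes of like mean FPKM, the SD of Actg2 was above that of 92.5%, Tagln above 92.1%, Des above 91.8% and Acta2 above 89.3%. Mylk was above 66.9%, and the low genes Lmod1 and Synm were above 27.8% and 17.5%, on a scale where the pseudocount compresses them. Summed over the 9 members, a tumor held between 91.05 and 174.7 FPKM in the control group (126.1 ± 30.5, SD, n = 5) and between 96.3 and 174.4 FPKM in the Villin-WlscKO group (140.8 ± 33.4, SD, n = 5). Tumor 1 was the lowest of each group, and the highest were control tumor 3 and Villin-WlscKO tumors 3 and 4.

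The members did not all single out the same tumors. Control tumor 3 was the highest of its group for 8 of the 9, all but Mylk. Control tumor 1 was the lowest for Acta2, Actg2, Myh11, Tagln and Lmod1 and the highest for Mylk. Control tumor 4 was the lowest for Des and Cnn1, at 1.13 and 1.56 FPKM, while its Acta2 was 53.4 FPKM. Of the Villin-WlscKO tumors, tumor 3 was the highest for 6 members and tumor 4 for Actg2, Des and Cnn1.

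**Figure D3:**
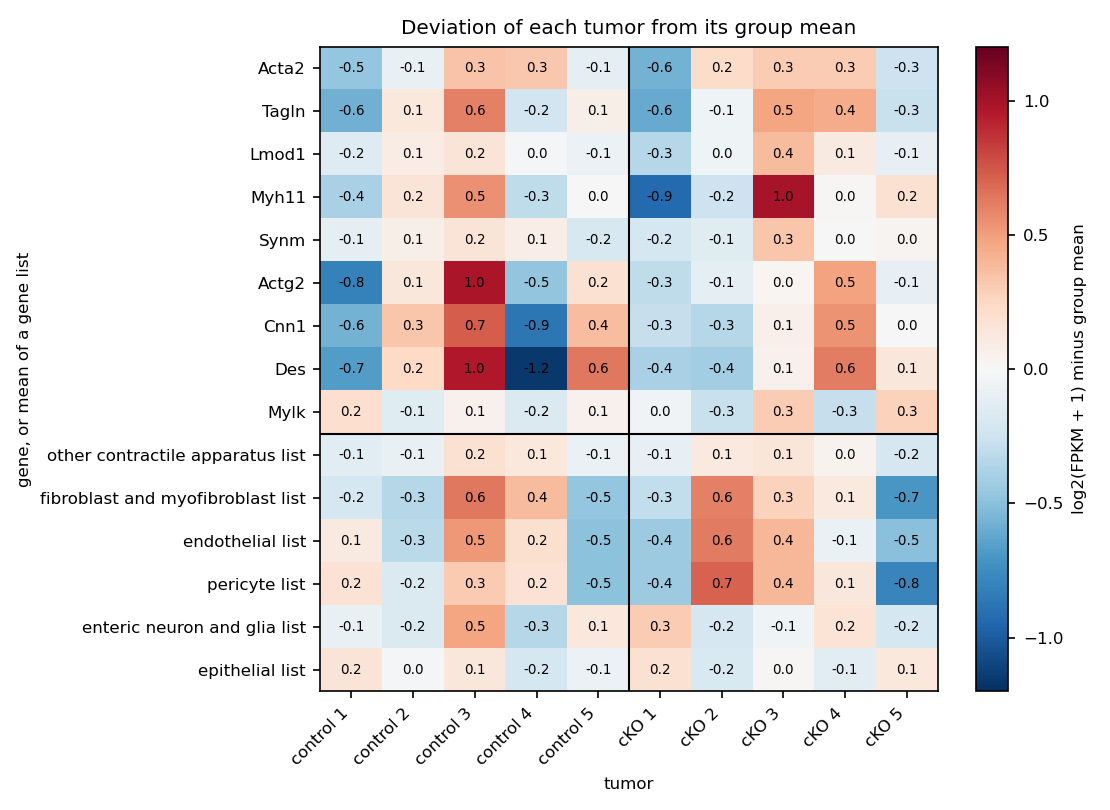
Deviation of each tumor from the mean of its own group, in log2(FPKM + 1), for the 9 members (above the line) and for the mean over the genes of 6 lists (below it). In control tumor 4 Des (1.13 FPKM) lies far below its group mean and Acta2 (53.4 FPKM) above it, and the rows of Des and Cnn1 are alike over the 10 tumors.

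With group means removed, the 36 pairs of members had Pearson correlations over the 10 tumors between -0.33 and 0.99, with a median of 0.55, and 33 were above 0. The 10 points share the scaling of their library, and no p is given. Des and Cnn1 were the most alike (0.988, and 0.974 without control tumors 1 and 4, the farthest from the median). Actg2 and Cnn1 were at 0.908, Myh11 and Lmod1 at 0.914. Acta2 and Des were at 0.23. Against the mean of the other 8 members, Tagln was at 0.934, Actg2 at 0.852 and Cnn1 at 0.814, while Acta2 was at 0.537 and Mylk at 0.0498. Mylk was the one member close to 0 against the others.

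To compare members inside a tumor, log2(FPKM + 1) of Acta2 was subtracted from that of each other member and the groups were compared by a two-sided exact permutation test over 252 arrangements, with Benjamini-Hochberg adjustment over the 8 differences. The smallest p possible was 0.00794. Mylk minus Acta2 was -0.93 ± 0.45 in control and -1.86 ± 0.53 in Villin-WlscKO tumors (SD, n = 5 each), a difference of -0.92 (exact p = 0.0238, adjusted p = 0.190), and the groups overlapped between -1.42 and -1.33. For the other 7 the difference was between -0.24 for Synm and 0.44 for Des, with exact permutation p between 0.222 and 0.865. Thus 0 of 8 passed the adjustment, and 1 of 8, Mylk, had an unadjusted p under 0.05.

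The rest of the contractile machinery gave 1 call. Of 18 further genes of the contractile apparatus, 16 were in the table, 8 were higher and 8 lower in mean (median log2 change -0.03), and 1 was called (all tested genes: 10.9%). That gene, Tpm1, which encodes a tropomyosin that winds along actin filaments in muscle and nonmuscle cells, fell from 376.8 ± 22.1 to 315.7 ± 12.3 FPKM (SD, n = 5 each, log2 change -0.25, SE 0.06, limma adjusted p = 0.0243), with no overlap. It lost the call with each tumor rescaled to 1 FPKM sum, with a block for the replicate number, without control tumor 2 and without Villin-WlscKO tumor 2, 3 or 4. Flna (filamin A) was at 142.5 ± 26.4 and 114.5 ± 20.1 FPKM and Csrp1, a LIM protein of smooth muscle, at 82.4 ± 13.9 and 87.4 ± 22.4 FPKM, neither of them called.

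Of 19 genes that control contraction, listed under current and older symbols, 13 were in the table. 1 was called (all tested genes: 10.9%), Ppp1r12a, the targeting subunit of the phosphatase that removes the phosphate that Mylk adds, which rose. Its level was 1.08 ± 0.170 FPKM in the control and 2.79 ± 0.608 FPKM in the Villin-WlscKO group (SD, n = 5 each), with no overlap (log2 change 0.85, SE 0.13, limma adjusted p = 0.00276). At this low level the pseudocount understates the rise, and the log2 ratio of the mean FPKM without it was 1.37. Srf, the factor of the CArG boxes, was at 14.0 ± 1.41 and 11.8 ± 0.679 FPKM (log2 change -0.23, limma adjusted p = 0.111) and overlapped between the groups. Rock1, a kinase that inhibits that phosphatase, was at 15.2 ± 0.282 and 15.9 ± 2.29 FPKM. Myocd, the SRF partner of muscle cells, and the ion channel, receptor and cyclase genes Kcnmb1, Chrm2, Chrm3 and Gucy1a1 were not analysed here.

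Genes of the other cells that a macrodissected tumor can hold were set beside the members. Of 13 fibroblast and myofibroblast genes, 0 were called by limma at an adjusted p under 0.05, and their summed level was 836.2 to 1650 FPKM in control and 821.5 to 1669 FPKM in Villin-WlscKO tumors. Limma also called 0 of 6 pericyte, 8 endothelial, 3 interstitial cell of Cajal and 3 enteric neuron and glia genes. Since 10.9% of all tested genes were called, lists this short can hold 0 calls without differing from other genes. At an unadjusted limma p under 0.05 the fibroblast list held 1 gene (Grem1) and the interstitial cell list 1 (Kitl). The pericyte, endothelial and neuron and glia lists held 0. The share of all genes under that unadjusted limit is not given here. The neuron and glia list was at 8.178 to 23.02 FPKM in control and 14.6 to 27.24 FPKM in Villin-WlscKO tumors. The summed pericyte level was 16.48 to 41.7 FPKM and 13.49 to 53.63 FPKM, and the endothelial level 51.55 to 97.51 FPKM and 43.55 to 95.92 FPKM. Kitl, the ligand of the receptor Kit on interstitial cells of Cajal, was at 72.9 ± 30.9 and 41.5 ± 8.56 FPKM (log2 change -0.74, limma adjusted p = 0.0808). Acta1, Actc1 and the skeletal and cardiac myosins Myh1, Myh2, Myh4, Myh6 and Myh7 were not analysed here.

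Acta2 was high in the tumors where fibroblast genes were high, while Des was spread over both kinds of tumor. The 5 tumors with the highest Acta2 (control 3 and 4, Villin-WlscKO 2, 3 and 4) were also the 5 with the highest mean log2(FPKM + 1) over the fibroblast list, the pericyte list and the other contractile apparatus. For fibroblasts the fifth and sixth highest means were 4.97 and 4.55, a gap like that of Acta2, so that no correlation is given across it. For pericytes these means were nearly tied, at 2.392 and 2.39. Of the 5 tumors highest for Des, 3 were among those 5, as for Cnn1 and Myh11, and 4 for Actg2, Tagln and Lmod1. Col1a1, the collagen of fibroblasts, was at 38.4 FPKM in control tumor 4 beside a Des of 1.13 FPKM, and at 13.0 FPKM in Villin-WlscKO tumor 5 beside a Des of 7.12 FPKM. The part of fibroblasts in the Acta2 level was not tested.

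**Figure D4:**
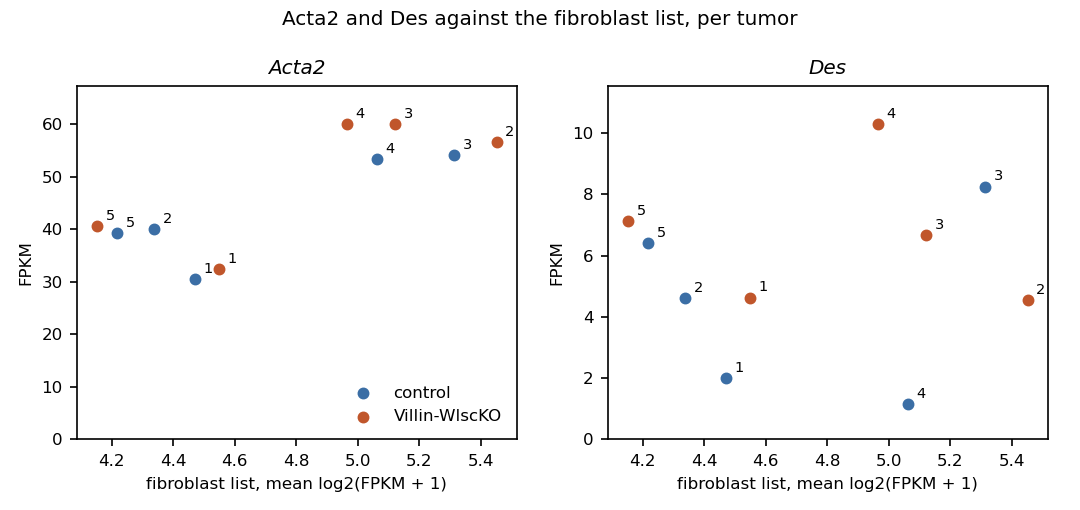
Acta2 (left) and Des (right) in FPKM (linear axis) against the mean log2(FPKM + 1) of 13 fibroblast and myofibroblast genes, 1 point per tumor, control and Villin-WlscKO marked apart. The 5 tumors with a fibroblast mean of 4.97 or more hold Acta2 of 53.4 to 60.1 FPKM and the others 30.5 to 40.6 FPKM, while Des spreads from 1.13 to 10.3 FPKM on the first side and from 2.00 to 7.12 FPKM on the other.

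Within the groups, Mylk was higher in tumors with higher epithelial genes. With group means removed, its Pearson correlation over the 10 tumors was 0.67 with the mean of 8 epithelial genes (0.594 without control tumors 1 and 4, 0.773 among control and 0.652 among Villin-WlscKO tumors). This was the largest of the correlations of Mylk with the gene lists, and no p is given. With the squamous list Mylk was at 0.103 over the 10 tumors and at 0.876 among control tumors. Acta2 was at -0.646 with the epithelial list over the 10 tumors. The epithelial genes themselves were all higher in mean in Villin-WlscKO tumors, with 1 of 8 called (all tested genes: 10.9%), Krt20, a keratin of differentiated colonocytes, at 175.9 ± 48.7 and 327.5 ± 67.9 FPKM (SD, n = 5 each, log2 change 0.91, limma adjusted p = 0.0156). So the group difference of Mylk was opposite in sign to that of the epithelial list, whose summed level was 6105 to 8613 FPKM in control and 7460 to 9573 FPKM in Villin-WlscKO tumors. Krt19, the most abundant gene of that list (mean 3265 FPKM), shares all its values with Krt13 and Krt17, so these keratins were not separated. Its entry was highest in Villin-WlscKO tumor 3, at 4525 FPKM. Epithelial and muscle Mylk were not separated in these data.

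Of the 7 squamous genes 1 was called (all tested genes: 10.9%), Sprr1a, a precursor of the cornified envelope, which rose (log2 change 1.52, limma adjusted p = 0.0302). It was high in all 5 Villin-WlscKO tumors, 103.9 to 145.5 FPKM, and at 112.6 FPKM in control tumor 5, so that it did not set tumors 2 and 3 apart. Its call was lost in 9 of 22 refits, among them those without Villin-WlscKO tumors 2 and 3, with the replicate block and without control tumor 2 or 4 or Villin-WlscKO tumor 1, 2, 3 or 4. Tpm2, a tropomyosin of muscle, was at 83.0 FPKM in Villin-WlscKO tumor 3 and between 18.5 and 37.8 FPKM elsewhere. Without these 2 tumors the member counts were the same, 1 called lower, Mylk, and 0 called higher. The log2 change was then 0.015 for Acta2, 0.026 for Myh11, 0.097 for Lmod1, 0.20 for Tagln and -0.115 for Synm, each below its value with all tumors. It was 0.41 for Actg2, 0.43 for Cnn1 and 0.75 for Des, each above its value with all tumors.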

How the data were processed

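Poly(A) RNA of 5 control and 5 Villin-WlscKO colon tumors was sequenced from TruSeq stranded libraries. Per the submitters' processing notes, FastQC, TopHat2 2.1.1, Cufflinks 2.2.1 and Cuffdiff were used with GRCm38.p5. The values deposited by the authors are FPKM, 1 per gene name and tumor. The annotation release and the use of strand are not given in the sources used here. All 10 columns were assigned by their labels and 0 were left over. Cuffdiff needs reads, so log2(FPKM + 1) was compared with limma 3.58.1 in R 4.3.3 (variance trend, no covariate, mean FPKM of at least 0.5), which was tested on simulated data. Permutation tests, summaries and figures used scipy 1.17.1, pandas 2.3.3, numpy 2.4.6 and matplotlib 3.10.9 under Python 3.11.15. Members and lists were chosen with earlier results of these data known. Besides members, the text names Wls, list genes past the threshold or among the 4 highest of their list, and the 10 genes most like the member mean. Xist, Eif2s3y, Tpm2, Col1a1, Vil1, Grem1 and genes named as overlapping or not analysed were added after values were seen. Same-numbered tumors did not pair (correlations of their deviations 0.0638, -0.0868, 0.0626, 0.1 and 0.162). The alternatives were other pseudocounts, filters, scalings, variance models and left-out tumors. The members share all values with 0 other names.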

Additional observations from a re-analysis of the deposited data

Results flagged for a closer look

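Among 86 groups of 5 values examined for a tumor far from the rest of its group, 4 were flagged, and chance flags about 1 in 20 groups. Control tumor 4 stood apart for Myh11 minus Acta2 in log2(FPKM + 1), at -3.82 with the nearest control tumor at -3.12. The other 3 are genes whose pattern over the tumors was most like that of the member mean, all in control tumor 3, the tumor with the highest member sum of its group. Zc3h12a, an RNase that limits inflammatory transcripts, was at 36.8 FPKM there with the nearest control tumor at 18.5 FPKM. Nfkbiz and Nxpe3, which share all their values in the table and count as 1, were at 31.7 FPKM with the nearest at 20.1 FPKM.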

How the results depend on the processing

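Mylk was lower and past the threshold in all 22 refits of limma, with adjusted p between 0.00505 and 0.0211, and no other member passed or changed sign in any. With the replicate block the change of Mylk was -0.74, the block changed no other member call, and the number of genes called was 1627 in place of 1822. With a mean FPKM of at least 5, Myh11, Cnn1, Lmod1 and Synm could not be fitted, since their means are lower. Genes called numbered 1385 higher and 412 lower with rescaling to an FPKM sum of 1000000, which moved the median of all genes to 0.097, 894 higher and 1126 lower with quantile normalization, and 1092 without Villin-WlscKO tumors 2 and 3. List counts that moved were as follows. Lower genes of the other contractile apparatus were 0 (Tpm1 lost) with FPKM sum rescaling, with the replicate block, without Villin-WlscKO tumors 2 and 3, and 0 to 1 with 1 tumor left out. In the contraction signaling list, 1 was lower (Srf) with quantile normalization and 0 were higher with the filter at 5, which Ppp1r12a does not reach. Lower fibroblast genes were 0 to 1 (Vim, without control tumor 1) with 1 tumor left out. The interstitial cell of Cajal list had 1 lower (Kitl) with the replicate block. Higher epithelial genes were 2 (Krt20 and Vil1) with FPKM sum rescaling and 1 to 2 with 1 tumor left out. Higher squamous genes were 0 with tumor quality weights, with the replicate block and without Villin-WlscKO tumors 2 and 3, and 0 to 1 with 1 tumor left out. For these moves the cause was not tested. With 1 tumor left out, differences from Acta2 that changed sign ranged from -0.0028 to 0.36 for Actg2, -0.086 to 0.20 for Myh11, -0.14 to 0.29 for Cnn1 and -0.065 to 0.098 for Lmod1. The depth is unknown, and genes near 1 FPKM, Lmod1 and Synm among the members, were compared with little precision.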

Other observations

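Among 11788 genes whose mean FPKM reached 5, the 10 outside the set whose pattern was most like the mean log2(FPKM + 1) of the members, with group means removed, had Pearson correlations of 0.92 to 0.98 over the 10 tumors, where the median of all genes was 0.0617. They were Pgam1-ps2 (0.98), Fam114a1 (0.954), Epas1 (0.942), Chst4 (0.938), Vars2 (0.936), Zc3h12a (0.934), Ttc39a (0.933), Nxpe3 and Nfkbiz (0.924 each, with identical values) and Mon1a (0.92). None of them is in the lists of contractile, fibroblast or pericyte genes. Epas1 encodes a transcription factor of the response to low oxygen. Among control tumors it was lowest in tumor 1, at 8.87 FPKM, and highest in tumor 3, at 14.5 FPKM, the tumors with the lowest and highest member sum of that group, and in Villin-WlscKO tumors it ran from 10.6 to 17.4 FPKM. The 10 were picked as the most alike of many genes over 10 tumors, so that their correlations are a description.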
